A study of Homo sapiens with 6 samples.

Results

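The high mobility group (HMG) chromatin proteins were followed in HaCaT, an immortalised line of human skin keratinocytes, after 48 h of dacomitinib and in control cells. The members were chosen by gene name, namely HMGB1, HMGB2, HMGB3, HMGA1, HMGA2 and HMGN1 to HMGN5, which are 10 of the 58735 genes in the table. They were picked with this treatment comparison already known, so their differences are given as a description and carry no test of their own. All 10 passed the limit on low expression, a mean FPKM (fragments per kilobase of gene, scaled to library size) of at least 1 over the 6 libraries.

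The study held 3 dacomitinib samples and 3 control samples, all of the same wild-type line according to the labels. Dacomitinib is a drug that blocks EGFR and related receptor kinases by binding them covalently. Neither its dose nor the vehicle of the controls is stated in the labels. A time of 48 h is given for the dacomitinib samples and none for the controls. The design text places 0.1% DMSO with the experimental group and the start of treatment at 70% confluence. Whether the 3 samples of a group were separate cultures is not stated, so errors and p-values cover only their spread, which may be technical. The column letters of the dacomitinib libraries stand in no label, and these columns were assigned by elimination.

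Libraries held 15171200 to 16179273 fragments on genes with dacomitinib and 14960650 to 16166582 in controls. All 7 keratinocyte markers checked were above the expression limit. Their summed level was 611 to 723 FPKM in dacomitinib libraries and 952 to 1006 FPKM in controls. KRT14, KRT6A, KRT8 and KRT18 were lower. KRT17 was higher, at 26.2 FPKM with dacomitinib and 13.6 FPKM in controls, and TP63 was at 37.4 and 40.1 FPKM. KRT5, the largest part of the sum, differed by -0.34 in log2(FPKM + 1), and by -0.02 with TPM scaling. Of 5 fibroblast, 4 melanocyte and 3 leukocyte markers, 0 passed that limit. Of 3 endothelial markers only CDH5 did, at 10.0 FPKM with dacomitinib and 1.15 FPKM in controls. The summed level of the fibroblast markers was 1.00 to 1.96 FPKM with dacomitinib and 0.224 to 0.523 FPKM in controls, and DCN had 584 fragments over the dacomitinib libraries and 11 over the controls. The melanocyte sum was 1.94 to 2.40 FPKM with dacomitinib and 1.08 to 1.42 FPKM in controls. The leukocyte sums overlapped, at 0.528 to 1.05 FPKM with dacomitinib and 0.332 to 1.13 FPKM in controls, and the endothelial sum was 10.6 to 13.5 FPKM with dacomitinib and 1.81 to 2.20 FPKM in controls. The part of these markers in the HMG values was not tested. COL1A2 and TYR were at 0 fragments in all 6 libraries, and VIM had 0 fragments over the dacomitinib libraries and 3 over the controls.

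HMG proteins are abundant, small non-histone proteins of chromatin, in 3 families. HMGB proteins carry HMG boxes, which bind the minor groove and bend DNA; HMGA proteins bind AT-rich DNA through AT-hooks; HMGN proteins bind the nucleosome itself and compete with linker histone H1. HMGB1 also acts as an alarmin when it leaves the cell, and HMGB2, HMGA1 and HMGA2 are known for high levels in dividing or embryonic cells.

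The promoters of 3 members that were lower with dacomitinib and of 1 that was higher are shown. Members of the family differ in how many CCAAT boxes they carry. The 3 lower members were picked for carrying CCAAT and HMGN4 for carrying none. The printed set thus cannot show whether the boxes go with the direction. CCAAT is the motif bound by the factor NF-Y, which is frequent in promoters of cell cycle genes. Sequences are from RefSeq (GRCh38.p14), which had 12 promoter entries for 8 of the 10 members; HMGB2 and HMGA2 are named only. Each runs 5′ to 3′ on the gene's strand, from 250 bases before the first listed start and ends at that start, or earlier where an exon of the same gene begins; capitals mark CCAAT. The first listed starts of HMGB1 and HMGB3 lie inside the span that the deposited table gives for the gene, so these stretches are promoters of a start within it.
HMGB1 chr13:30465966-30466186 minus strand: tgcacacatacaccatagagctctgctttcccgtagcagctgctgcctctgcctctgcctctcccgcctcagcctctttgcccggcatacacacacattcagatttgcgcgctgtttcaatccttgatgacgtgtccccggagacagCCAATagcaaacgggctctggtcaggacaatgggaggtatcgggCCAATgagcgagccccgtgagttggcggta
HMGB3 chrX:150983085-150983285 plus strand: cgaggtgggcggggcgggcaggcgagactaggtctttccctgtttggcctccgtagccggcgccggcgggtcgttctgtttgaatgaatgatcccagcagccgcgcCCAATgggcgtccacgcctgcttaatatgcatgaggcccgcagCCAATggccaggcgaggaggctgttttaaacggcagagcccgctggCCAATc
HMGN2 chr1:26472190-26472439 plus strand: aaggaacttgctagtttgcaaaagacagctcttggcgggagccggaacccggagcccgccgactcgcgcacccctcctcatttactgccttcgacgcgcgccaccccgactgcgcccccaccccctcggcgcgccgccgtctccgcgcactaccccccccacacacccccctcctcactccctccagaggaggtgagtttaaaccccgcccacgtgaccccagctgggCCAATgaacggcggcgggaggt
HMGN4 chr6:26538116-26538365 plus strand: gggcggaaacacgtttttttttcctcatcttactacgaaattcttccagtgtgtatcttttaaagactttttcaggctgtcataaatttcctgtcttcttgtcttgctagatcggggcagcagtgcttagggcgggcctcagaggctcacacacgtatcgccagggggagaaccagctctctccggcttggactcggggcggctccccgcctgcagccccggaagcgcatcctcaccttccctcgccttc

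In the 250 bases before the first listed start, searched on both strands, HMGB1 and HMGB3 each held 3 CCAAT motifs. The third of HMGB1 begins 28 bases before the start and lies outside the stretch printed. HMGN1 and HMGN3 held 2 each and HMGN2 held 1, while HMGA1, HMGN4 and HMGN5 held 0. Of 35116 RefSeq promoters of the same length, 32% held at least 1 CCAAT and 2.93% held 3 or more. At the first listed start the count did not follow the direction of the difference throughout, since HMGA1 and HMGN5 fell with 0 motifs and HMGN3 rose with 2. The count depends on the start chosen. The second listed starts of HMGA1 and HMGB1 held 1 CCAAT each, and the second of HMGB3 and the third of HMGB1 held 0.

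**Figure D1:**
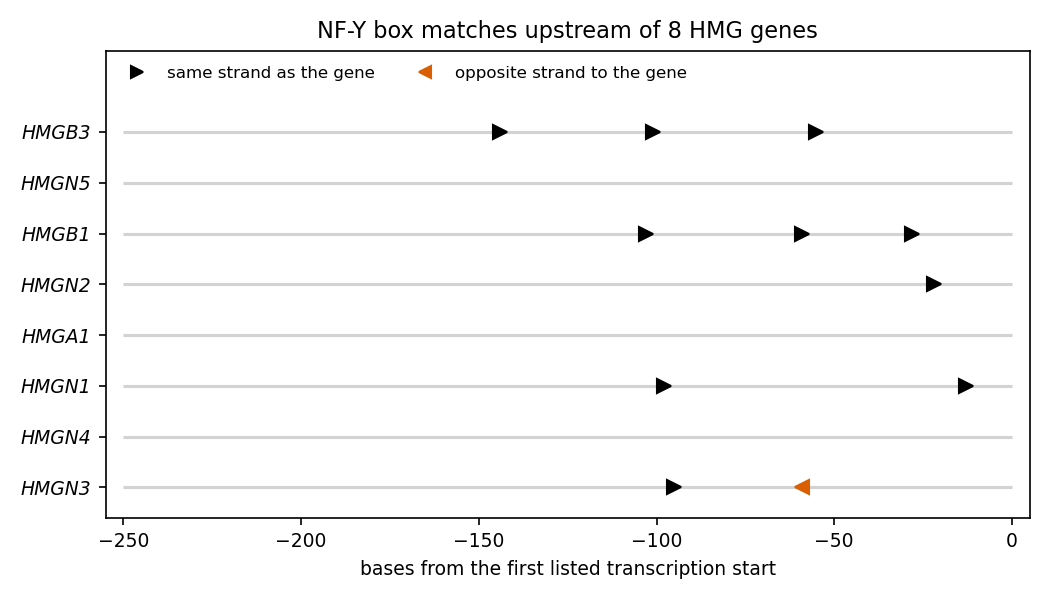
Positions of NF-Y box matches in the 250 bases before the first listed transcription start of the 8 HMG genes with a RefSeq promoter; the x axis is bases from the start, and genes run from the largest fall at the top to the largest rise at the bottom. HMGB3 and HMGB1 carry 3 matches each, and HMGN4, HMGA1 and HMGN5 carry 0.

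The cell cycle homology region TTTGAA is bound by the MuvB complex that represses cell cycle genes in resting cells. TTTGAA was found in the first promoter of HMGB3 and before the second listed start of HMGB1. Of the 12 entries only these held it, close to the share of 13.3% among all promoters. The E2F-type motif GCGGGAA was in 0 of the 12 entries, against 5.52% of all promoters. These matches are letters in a window and not measured binding sites.

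Across the family, 8 members fell and 2 rose with dacomitinib. HMGB3, HMGB2, HMGN5, HMGB1 and HMGN2 fell to between 12.2% and 34.1% of the control FPKM, HMGA1, HMGA2 and HMGN1 to between 45.9% and 61.1%, while HMGN3 and HMGN4 rose to 141% and 119%. Every member was past an adjusted p of 0.05 in the limma fit over all genes, two-sided. In that fit 60.2% of all 13748 genes tested were called, 34.8% lower and 25.4% higher. For all 10 members the dacomitinib and control libraries did not overlap, as was so for 67.1% of genes tested. The median difference of the members in log2(FPKM + 1) was -1.32, beside -0.06 for all genes tested. In bulk RNA, fewer cells that express a gene and less of its RNA per cell cannot be told apart.

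**Figure D2:**
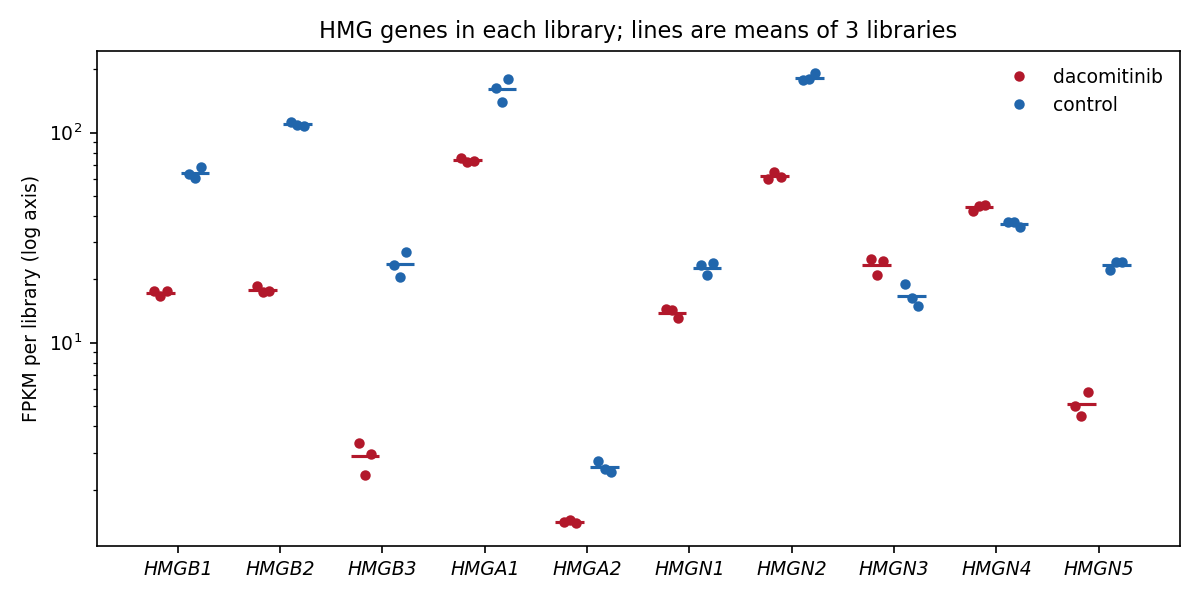
FPKM of the 10 HMG genes in each library on a log axis, with dacomitinib (red) left of control (blue); points are libraries and lines the means of 3. Dacomitinib lies below control for 8 genes and above it for HMGN3 and HMGN4, and no pair of groups overlaps.

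Among the HMGB genes, HMGB1 (ENSG00000189403, chromosome 13, 30456704 to 30617597, GRCh38) encodes the most studied member, a DNA-bending protein and alarmin. It had 17.6, 16.6 and 17.7 FPKM in the dacomitinib libraries and 63.8, 60.7 and 68.9 FPKM in the controls. The highest dacomitinib library was thus well below the lowest control. The difference in log2(FPKM + 1) was -1.84 (SE 0.06).

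HMGB2 (ENSG00000164104, chromosome 4, 173331695 to 173335125) encodes the paralog linked to proliferating cells. It had 18.5, 17.4 and 17.6 FPKM in dacomitinib libraries and 112, 109 and 107 FPKM in controls, a log2 difference of -2.55 (SE 0.04). Its libraries were tight in both groups, with a coefficient of variation of 3.46% with dacomitinib and 2.10% in controls.

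HMGB3 (ENSG00000029993, chromosome X, 150980509 to 150990775) encodes the member known from early blood progenitors. It had 3.33, 2.36 and 2.97 FPKM in dacomitinib libraries and 23.5, 20.5 and 27.2 FPKM in controls, a log2 difference of -2.67 (SE 0.13). That fall was larger than the one of HMGB2 as fitted, but smaller with a pseudocount of 5, where HMGB3 stood at -1.86 and HMGB2 at -2.33. It was also the most variable member in each group, with a coefficient of variation of 17.1% with dacomitinib and 13.98% in controls. It rested on 155 to 221 fragments per dacomitinib library and 1256 to 1584 per control library.

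The HMGB genes did not fall by the same factor. Within a library, where scaling between libraries has no effect, the ratio of HMGB2 to HMGB1 was 1.05, 1.05 and 0.993 with dacomitinib and 1.75, 1.80 and 1.56 in controls. In FPKM, which is per length, HMGB2 thus stood above HMGB1 in every control and level with it in the treated libraries. In fragments HMGB1 had more than HMGB2 in both groups, with 22040 and 13447 over the controls and 6774 and 2508 over the dacomitinib libraries. The ratio of HMGB3 to HMGB1 was 0.166 ± 0.0239 with dacomitinib and 0.367 ± 0.0280 in controls (SD, n = 3), and these groups did not overlap either.

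HMGA1 (ENSG00000137309, chromosome 6, 34236873 to 34246231) encodes AT-hook proteins that are abundant in embryonic and tumour cells. It had 75.6, 72.2 and 73.6 FPKM in dacomitinib libraries and 163, 140.4 and 179.5 FPKM in controls, a log2 difference of -1.11 (SE 0.09). It was the most abundant member after treatment, and its spread was larger in controls (19.7 FPKM) than with dacomitinib (1.71 FPKM).

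HMGA2 (ENSG00000149948, chromosome 12, 65824131 to 65966295) encodes the other AT-hook protein, which is restrained by let-7 microRNAs. It was the weakest member in both groups, at 1.40, 1.43 and 1.38 FPKM in dacomitinib libraries and 2.73, 2.51 and 2.42 FPKM in controls. The groups did not overlap, and the log2 difference was -0.56 (SE 0.09), or -0.24 with a pseudocount of 5, a scale that understates changes at such low levels; in FPKM itself HMGA2 stood at 55.0% of control. Its FPKM is set over an exon length of 15403 bases, the longest of the family. The antisense gene AC090673.1 overlaps its exons, with 60 fragments over the dacomitinib libraries and 66 over the controls, beside 1098 and 1741 for HMGA2.

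The let-7 sites of HMGA2 are shown because they set this gene apart from the rest of the family in sequence. The mature let-7a is from RefSeq with its seed (bases 2 to 8) in capitals, and 8 let-7 family members share that seed. Below it are the 4 matches to the seed in the 3′ untranslated region of HMGA2 in GENCODE 29 (plus strand), with the matching bases in capitals.
hsa-let-7a-5p: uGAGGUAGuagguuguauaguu
HMGA2 chr12:65963298-65963320: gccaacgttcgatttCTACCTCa
HMGA2 chr12:65964533-65964555: ccccactactcaataCTACCTCt
HMGA2 chr12:65964945-65964967: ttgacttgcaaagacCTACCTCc
HMGA2 chr12:65965798-65965820: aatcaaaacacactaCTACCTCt

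The remaining match, for 5 in all, lies in the 5′ untranslated region. HMGA1 had 1 match and the other 8 members had 0 in their coding transcripts. Of 19702 coding genes 23.9% had at least 1 match in a transcript, and 15 genes (0.0761%), HMGA2 included, had at least 5. MicroRNAs themselves are not measured by these libraries. LIN28A and LIN28B, which block let-7 maturation, had 1 and 0 fragments over the dacomitinib libraries and 0 and 0 over the controls. Of 8 tested genes in the list of LIN28, let-7 and IGF2BP genes, 4 fell and 0 rose (median -0.20 in log2(FPKM + 1)). Of all genes tested, 34.8% were called lower and 25.4% higher. With TPM scaling 1 of the list fell and 3 rose, with a median of 0.07. IGF2BP2 was among the 4, at -0.15 (adjusted p = 0.0350 in limma, with 0.0128 to 0.268 over its alternatives). Its call was lost under 10 alternatives, and with TPM it was called higher, at 0.16. DICER1, which cuts microRNA precursors, fell to 10.8 ± 0.165 FPKM with dacomitinib, against 16.0 ± 0.592 FPKM in controls. IGF2BP3, an RNA-binding protein of the IGF2BP family, fell by 0.36 on the log2 scale (SE 0.05); that call was lost with TPM (adjusted p = 0.390 in limma, with 0.000286 to 0.390 over its alternatives).

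The HMGN genes moved in both directions. HMGN2 (ENSG00000198830, chromosome 1, 26472450 to 26475972), the most abundant member in controls by its mean, had 60.5, 65.1 and 61.3 FPKM in dacomitinib libraries and 178, 179 and 192 FPKM in controls (log2 difference -1.54, SE 0.05). HMGN5 (ENSG00000198157, chromosome X, 81113701 to 81201942), whose protein has a long acidic tail, had 5.02, 4.47 and 5.83 FPKM in dacomitinib libraries and 22.1, 24.3 and 24.2 FPKM in controls (log2 difference -2.01, SE 0.09). HMGN1 (ENSG00000205581, chromosome 21, 39342315 to 39349647) fell least of the HMGN genes that fell, with 14.4, 14.3 and 13.1 FPKM in dacomitinib libraries and 23.5, 21.0 and 23.9 FPKM in controls (log2 difference -0.67, SE 0.07; -0.39 with TPM and -0.45 with quantile normalization).

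HMGN4 (ENSG00000182952, chromosome 6, 26538405 to 26546254) is a relative of HMGN2 that arose by retroposition. It had 42.4, 44.8 and 45.0 FPKM in dacomitinib libraries and 37.6, 37.6 and 35.7 FPKM in controls, a log2 difference of 0.25 (SE 0.04), which was 0.57 with TPM and 0.48 with quantile normalization. The ratio of HMGN2 to HMGN4 in a library was 1.43, 1.45 and 1.36 with dacomitinib and 4.72, 4.77 and 5.38 in controls. HMGN2 thus exceeded HMGN4 in all 6 libraries, by far less after treatment. The pair shared 0 exact stretches of 50 bases in GENCODE 29 transcripts, so reads of that length that match without error cannot be assigned to both.

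HMGN3 (ENSG00000118418, chromosome 6, 79201245 to 79234738), known from glucose-sensing and neural tissue, rose most. It had 24.9, 21.1 and 24.4 FPKM in dacomitinib libraries and 18.9, 16.2 and 14.96 FPKM in controls (log2 difference 0.47, SE 0.10; 0.80 with TPM), and the lowest treated library lay above the highest control. Its antisense gene HMGN3-AS1 overlaps its exons and had 233 fragments over the dacomitinib libraries and 82 over the controls, beside 1209 and 749 for HMGN3. HMGN3-AS1 was itself called higher (log2 difference 0.64, SE 0.16, adjusted p = 0.0137 in limma, with 0.00116 to 0.0472 over its alternatives). The counting is not stated to use strand, so reads of the pair cannot be told apart where they overlap. The ratio of HMGN5 to HMGN3 was 0.217 ± 0.0192 with dacomitinib and 1.43 ± 0.234 in controls (SD, n = 3).

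**Figure D3:**
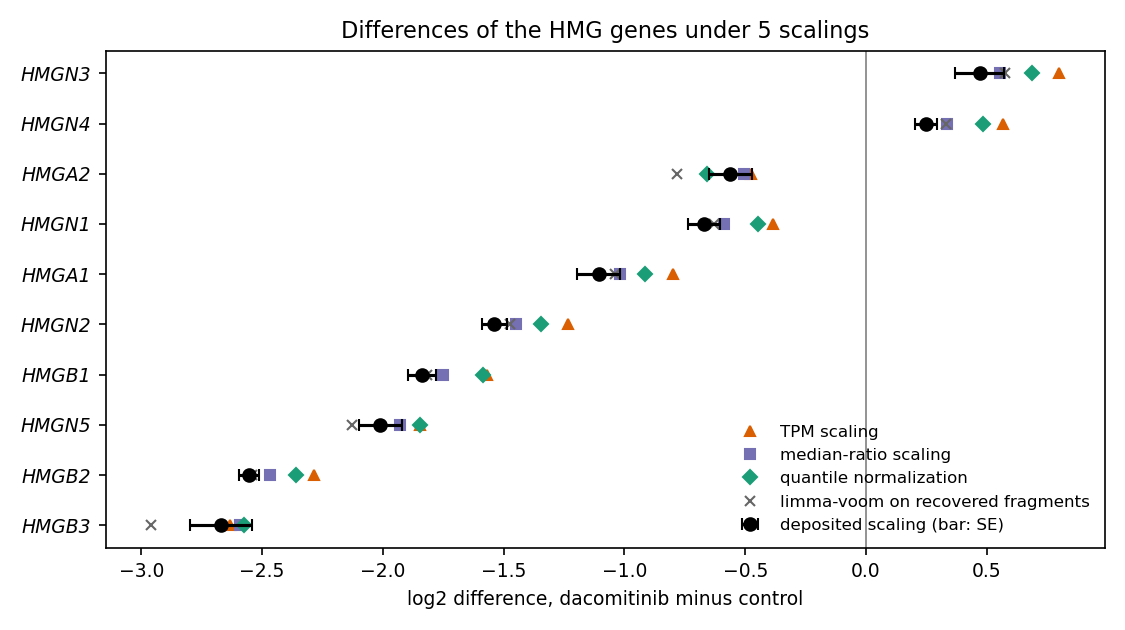
Difference in log2(FPKM + 1), dacomitinib minus control, of each HMG gene with the deposited scaling (black, bar is the SE of the limma fit) and with 4 other scalings (symbols; the limma-voom values are log2 fragments scaled to library size). HMGN3 and HMGN4 lie right of 0 and the other 8 genes left of it under all 5 scalings.

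The directions held under every scaling tried, while their sizes moved with it. The median of all genes tested lay at -0.06 with the deposited scaling and at 0.23 with TPM, and higher genes made up 42.2% of all calls with the deposited scaling and 68.0% with TPM. Set against that median, HMGB2 stood at -2.50 with the deposited scaling and -2.52 with TPM. HMGN1 stood at -0.62 with both, and HMGN4 at 0.30 with the deposited scaling and 0.33 with TPM. Quantile normalization moved these 2 genes further, to -0.47 for HMGN1 and 0.46 for HMGN4. Over the 5 scalings HMGB3 ranged from -2.60 with quantile normalization to -2.97 with limma-voom, and HMGA2 from -0.51 with the deposited scaling to -0.79 with limma-voom.

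The makeup of the family changed with its total. The summed level of the 10 genes was 264, 259.7 and 263 FPKM in dacomitinib libraries and 645, 612 and 676 FPKM in controls. Summed over the HMGB genes, the treated level was 19.2% of the control level, against 46.0% for the HMGA genes and 52.6% for the HMGN genes. HMGB genes made up 14.5 ± 0.481% of the family's summed FPKM with dacomitinib and 30.7 ± 0.544% in controls (SD, n = 3). HMGN3 and HMGN4 made up 8.96 ± 0.725% and 16.8 ± 0.637% with dacomitinib, against 2.60 ± 0.366% and 5.75 ± 0.437% in controls.

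**Figure D4:**
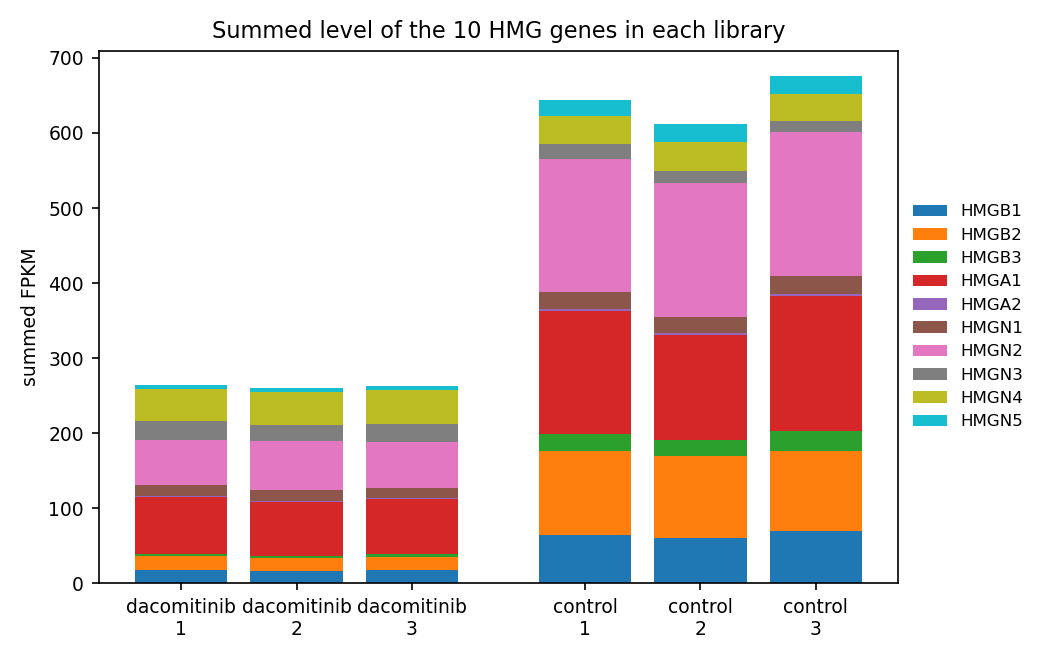
Summed FPKM of the 10 HMG genes in each library, stacked by gene, with dacomitinib libraries on the left and controls on the right. The treated sums lie between 259.7 and 264 FPKM and the control sums between 612 and 676 FPKM. The HMGB1, HMGB2 and HMGB3 segments at the foot together stand at 19.2% of their control sum.

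By mean FPKM, which is per length, the order with dacomitinib was HMGA1, HMGN2, HMGN4, HMGN3, HMGB2, HMGB1, HMGN1, HMGN5, HMGB3 and HMGA2. Of these neighbours only HMGB2 and HMGB1 overlapped in their libraries. In controls the order was HMGN2, HMGA1, HMGB2, HMGB1, HMGN4, HMGB3, HMGN5, HMGN1, HMGN3 and HMGA2. There HMGN2 and HMGA1 overlapped, as did HMGB3 with HMGN5 and HMGN5 with HMGN1. Among the 13748 genes tested, HMGB2 ranked 2233 with dacomitinib and 241 in controls, HMGB3 ranked 9737 and 1931, and HMGN4 ranked 685 and 1099. The libraries within a group differed little, and in control replicate 2 only 2 of the 10 members lay above their control mean.

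HMG genes have many processed pseudogenes, copies of the mRNA inserted elsewhere, which can take reads from the member. The table held 154 named after a member, of which 14 passed the expression limit, with 5 called lower, 2 higher and 7 not past the threshold, beside 34.8% lower and 25.4% higher of all genes tested. HMGB1P6 (chromosome 15, 71164770 to 71165415) stood above HMGB1 itself in FPKM over its short length, at 32.4 ± 5.71 FPKM with dacomitinib and 137 ± 10.1 FPKM in controls (SD, n = 3), a log2 difference of -2.06 (SE 0.12). HMGB1P5 (chromosome 3, 22381819 to 22382929) fell to 5.25 ± 1.23 FPKM with dacomitinib, against 31.4 ± 2.76 FPKM in controls. HMGB1 contained 52.9% of the 50-base stretches of HMGB1P6 and 60.1% of those of HMGB1P5 without a mismatch. Reads from such stretches cannot be placed by sequence, so the values of HMGB1 and these pseudogenes are uncertain to that extent.

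HMGA1P4 (chromosome 9, 128663134 to 128663578), which the table classes as antisense, went the other way from HMGA1. It rose to 10.8 ± 1.29 FPKM with dacomitinib, against 4.04 ± 0.436 FPKM in controls, and shared 0% of its 50-base stretches with HMGA1. Over all its pseudogenes, HMGB1 had 1621 pseudogene fragments beside 6774 of its own with dacomitinib and 5887 beside 22040 in controls. Added to HMGB1 they gave a log2 difference of -1.88 (SE 0.06), beside -1.84 for HMGB1 alone. The same sum for HMGB3 gave -2.48 (SE 0.11) beside -2.67, the largest shift of any member, and HMGB2 with its pseudogene then stood lower, at -2.52. The HMGB3 pseudogenes with most fragments over the dacomitinib libraries were HMGB3P24, HMGB3P4 and HMGB3P31, with 30, 22 and 21. They shared only 7.33%, 0% and 0% of their 50-base stretches with HMGB3. Whether the added fragments were misplaced reads of HMGB3 was not tested. HMGN4, HMGN5 and HMGA2 had no named pseudogene. Of the exact 50-base stretches in member transcripts, 13.9% of HMGN2, 13.6% of HMGN3 and 10.9% of HMGB1 also occurred in another annotated gene. For the other members it was at most 7.59%, with matches on either strand counted. HMGN3 shared its stretches with 1 other gene, against 33 for HMGN2 and 132 for HMGB1. The name of that 1 gene was not recorded. HMGN3-AS1, on the opposite strand, was the only annotated gene whose exons overlapped those of HMGN3. The pseudogene HMGN3P1 shared 0% with HMGN3.

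**Figure D5:**
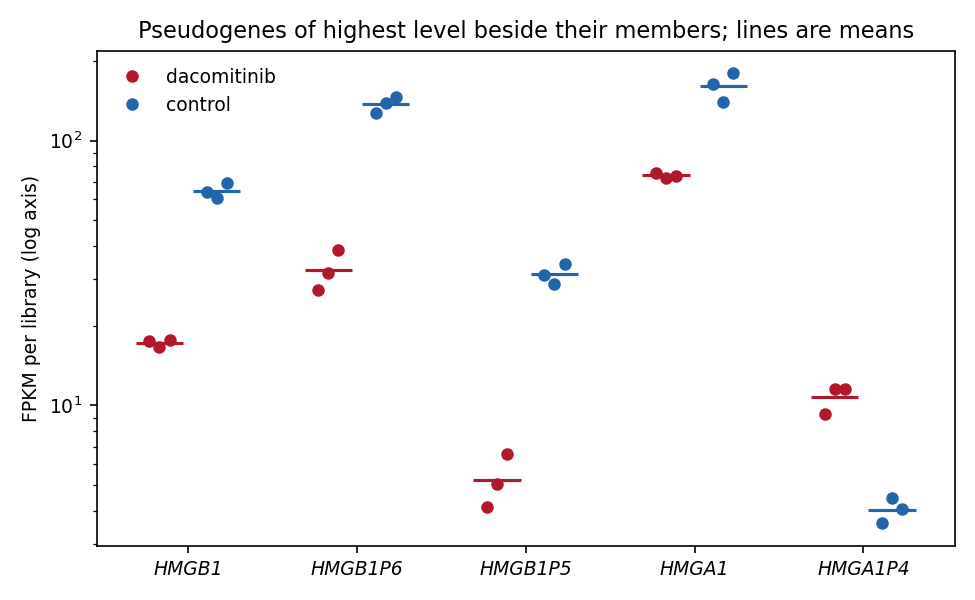
FPKM per library on a log axis for HMGB1 with HMGB1P6 and HMGB1P5, and for HMGA1 with HMGA1P4, with dacomitinib (red) left of control (blue); points are libraries and lines the means of 3. HMGB1P6 and HMGB1P5 lie lower with dacomitinib, as HMGB1 does, while HMGA1P4 lies higher and HMGA1 lower.

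Genes that work with HMG proteins were read from lists whose calls are set beside 34.8% lower and 25.4% higher of all genes tested. All 4 tested partners of HMGB2 in the SET complex fell (median log2 difference -0.83; -0.54 with TPM). NME1, a nucleoside diphosphate kinase, fell to 1.41 ± 0.0497 FPKM with dacomitinib, against 7.01 ± 0.0867 FPKM in controls. APEX1, a base excision repair endonuclease, fell to 38.9 ± 2.61 FPKM, against 77.0 ± 5.58 FPKM in controls. TREX1 was at 0 fragments in all libraries. Overlap of the exons of these partners with other genes was not checked.

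Of 16 histone chaperones, 13 fell and 1 rose (median log2 difference -0.84; 11 fell and 3 rose with TPM). ASF1B and CHAF1A, which deliver histones to replicated DNA, fell by 2.95 (SE 0.14) and 2.15 (SE 0.07) on the log2 scale. NAP1L1 rose by 0.14 (SE 0.04), which missed the threshold when control replicate 1 was left out (adjusted p = 0.0625 in limma, with 0.000188 to 0.0625 over its alternatives).

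Linker histones, with which HMGN proteins compete, gave 3 tested genes of 7. H1F0, the linker histone of resting cells, rose to 109 ± 14.9 FPKM with dacomitinib, against 71.9 ± 2.30 FPKM in controls, and HIST1H1C rose to 66.0 ± 11.2 FPKM, against 29.4 ± 3.66 FPKM in controls. H1FX was lower by a log2 difference of -0.49 (SE 0.16, adjusted p = 0.0344 in limma, with 0.00340 to 0.294 over its alternatives). Its call was lost under 9 alternatives, among them 3 other scalings and leaving out any single library other than dacomitinib replicate 1.

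Of 16 tested genes with an HMG box outside the HMGB family, 9 fell and 1 rose (median log2 difference -0.26). With TPM 5 fell and 6 rose, with a median of 0.04. WDHD1, a replication fork protein, fell to 3.40 ± 0.0528 FPKM with dacomitinib, against 15.1 ± 0.788 FPKM in controls. SSRP1, a subunit of the FACT histone chaperone, fell to 34.1 ± 2.07 FPKM, against 68.2 ± 5.03 FPKM in controls. TOX, a regulator of T cell development, rose by 0.49 (SE 0.14). That call was lost without dacomitinib replicate 1 or 2, without control replicate 3, without the filter and with quantile normalization (adjusted p in limma 0.00153 to 0.0773 over its alternatives). HMGB4, the testis member of the HMGB family, was at 0 fragments in all 6 libraries.

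Of 9 genes in the list of HMGB1 receptors and export, 4 were tested, and XPO1 and CD24 fell. XPO1, the nuclear export receptor, was at 31.4 ± 1.61 FPKM with dacomitinib and 53.2 ± 1.07 FPKM in controls. CD24, a surface protein that binds HMGB1, was at 41.6 ± 1.80 FPKM with dacomitinib and 63.4 ± 0.566 FPKM in controls. The receptors AGER and TLR4 did not pass the threshold, at 1.83 ± 0.757 and 1.64 ± 0.128 FPKM with dacomitinib and 2.15 ± 0.225 and 1.71 ± 0.0673 FPKM in controls.

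Markers of proliferating cells moved with the HMG genes that fell. All 12 fell, with a median log2 difference of -3.33, and log2 differences from -3.90 for CDC20 to -2.26 for CCNB2. MKI67 was at 5.27 ± 0.530 FPKM with dacomitinib and 87.2 ± 3.97 FPKM in controls. The part of this shift in the values of HMGB1, HMGB2, HMGB3 and the other members was not tested. HMGB2 and HMGB3 lay within the range of the 12 markers, and HMGB1, HMGN5, HMGN2, HMGA1, HMGN1 and HMGA2 fell by less than any of them.

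The genes nearest to HMGB3 in profile, by root mean square distance of the 6 centred log2(FPKM + 1) values, were TACC3, PKMYT1, SAPCD2, TUBB4B and ERCC6L, at distances of 0.06 to 0.12. TACC3, a spindle protein, was at 2.36 ± 0.299 FPKM with dacomitinib and 19.6 ± 2.20 FPKM in controls. PKMYT1, a kinase that inhibits CDK1, was at 0.730 ± 0.207 FPKM with dacomitinib and 11.0 ± 0.882 FPKM in controls. Nearest to HMGN3 were WAC-AS1, RNF152, WDR19, FRMD6-AS1 and BCAS4, at distances of 0.05 to 0.06. WDR19, a part of the machinery of cilia, was at 5.01 ± 0.318 FPKM with dacomitinib and 3.34 ± 0.293 FPKM in controls. These distances rest on 6 libraries in 2 groups.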

How the data were processed

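RNA of 6 HaCaT samples was measured by sequencing. The authors deposited 1 table of FPKM for 58735 genes, with positions on GRCh38. The tools named per the submitters' processing notes, without their roles, are DESeq2 1.20.0, featureCounts, HISAT2, fastp and CASAVA. The control columns were matched by initial and number. The other 3 columns bear a letter absent from the labels and were taken as dacomitinib because no other samples remained, so every direction rests on that.

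FPKM times gene length, divided by the smallest such product above 0 in the library, was a whole number of fragments, to within 0.01, for 100% of values. The library size within the deposited FPKM was 0.946 to 0.954 times the library's own fragment sum in controls and 1.05 to 1.09 times in dacomitinib libraries, so a scaling between libraries was applied before deposit.

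limma 3.58.1 (R 4.3.3) with a mean-variance trend was fitted to log2(FPKM + 1) of 13748 genes (mean FPKM at least 1), with Benjamini-Hochberg adjustment at 0.05, two-sided. The procedure was run on simulated fragments in which far fewer genes changed than were called here. Its error rate at such a share of calls was not tested. The 10 members and the gene lists were chosen with earlier results of these data known. Named genes were the 10 members, up to 2 rises and 2 falls past the threshold per list, the 3 pseudogenes of highest mean FPKM and the 5 genes nearest in profile to 2 members. Alternatives were pseudocounts of 0.1 and 5, no filter, a mean FPKM of at least 5, TPM, median-ratio and quantile scaling, no trend, limma-voom with TMM factors on recovered fragments, a replicate block and leaving out each library. Adding pseudogene fragments to their member was chosen after seeing the data. Promoters and miRNAs are RefSeq's (GRCh38.p14) and transcripts GENCODE 29. Amino acid sequences were not used here.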

Additional observations from a re-analysis of the deposited data

How the results depend on the processing

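All 10 members kept their direction and their call under every alternative in which they were tested; at a mean FPKM of at least 5 HMGA2 was not tested. The median difference of the members, -1.32 in log2(FPKM + 1), was -1.27 with a pseudocount of 5, -1.54 at a mean FPKM of at least 5, -1.02 with TPM, -1.23 with median-ratio scaling, -1.13 with quantile normalization, -1.26 with limma-voom and -1.30 with pseudogene fragments added, and -1.38 to -1.26 when 1 library was left out. Genes called higher over the whole table, 3493 as reported, came to 5779 with TPM and to 1946 with the filter at 5 FPKM, under which fewer genes are tested. Genes called lower, 4778 as reported, were 2721 with TPM. That scaling moved the median of all genes tested from -0.06 to 0.23, but not every gene by the same amount. HMGN3 went from 0.47 to 0.80, HMGB3 from -2.67 to -2.63 and NME1 the other way, from -1.73 to -1.83. With the replicate block 7883 genes were called, against 8271 without it, and the 10 member calls held. No label ties the numbers to shared cultures, and the deviations of same-numbered columns correlated at 0.0267, -0.0158 and 0.0402. These values cannot decide whether same-numbered samples were handled together. The dacomitinib columns were also assigned only as a group. Depth limits HMGN3, with 223 to 431 fragments per library, and HMGB3 and HMGN5 after treatment.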
